A study of Homo sapiens with 6 samples.

Results

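The core pluripotency factors and the DPPA genes were followed in H1 human embryonic stem cells (hESCs) at day 10 of ectoderm specification. They are 10 genes taken by symbol, with no threshold on their values: POU5F1 (OCT4), NANOG, SOX2, ZFP42 (REX1), DPPA2, DPPA3, DPPA4, L1TD1, SALL4 and PRDM14. All 10 had a row among the 23615 rows of the expression table. H1 is an established hESC line. All cells had received 0.5 nM bone morphogenetic protein 4 (BMP-4) for 3 days and 10% fetal calf serum (FCS) from then to day 10. Of the 6 libraries, 3 came from cells that were also given 5 μM DAPT, which blocks γ-secretase and with it the cleavage that activates Notch receptors, and 3 from cells given its ethanol vehicle. No untreated or undifferentiated cells were among these libraries, so each level is read against the vehicle and not against the starting state.

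In hESCs, OCT4, SOX2 and NANOG bind many enhancers together, including those of their own genes, and keep the cells self-renewing while genes of the germ layers stay low. The DPPA genes were named for expression that follows OCT4 in early mouse development and do not form a single protein family. OCT4 and SOX2 dose matters for lineage choice, and SOX2 is also kept in neural progenitors, so its presence alone does not mark a pluripotent cell.

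The table gives 1 expression value per treatment, in fragments scaled to transcript length and library size (FPKM), pooled over the 3 libraries by the authors. No value per library was available here, so no spread, interval or test can be given, the depth is unknown, and every difference below is a description of a pair of pooled values. A gene is said to have fallen or risen only where the pooled values differed by more than 2-fold, with at least 1 FPKM in either treatment and neither value at 0. Where a gene reached 1 FPKM in 1 treatment alone, a lower value in the other was favoured by this filter. All differences are DAPT over ethanol on the log2 scale, with nothing added to the FPKM. The deposited sheets name the value columns in opposite ways, and the names given in the shorter sheet, that of changed genes, were used because that sheet also defines the ratio. Under the other naming every direction given here would turn round. In bulk RNA, fewer cells that express a gene and less RNA per cell cannot be told apart.

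Of the 10 genes, 5 fell with DAPT, namely POU5F1, NANOG, DPPA2, DPPA3 and DPPA4, and 0 rose. The median log2 difference of the 10 was −0.99. Among all 13370 genes with a fold, 5.45% fell and 4.77% rose by the same rule, and the median log2 difference was 0.000635. All 10 genes reached 1 FPKM with ethanol and 8 of them with DAPT. Every one of the 10 pooled values was lower with DAPT by some amount, against 49.9% of all genes, although for ZFP42 the difference was close to 0 and its sign turned when the columns were scaled to the same sum. Just inside the 2-fold threshold was DPPA4 at −1.08, and just outside it was PRDM14 at −0.91. The summed level of the 10 genes was 516 FPKM with ethanol and 221 FPKM with DAPT.

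**Figure D1:**
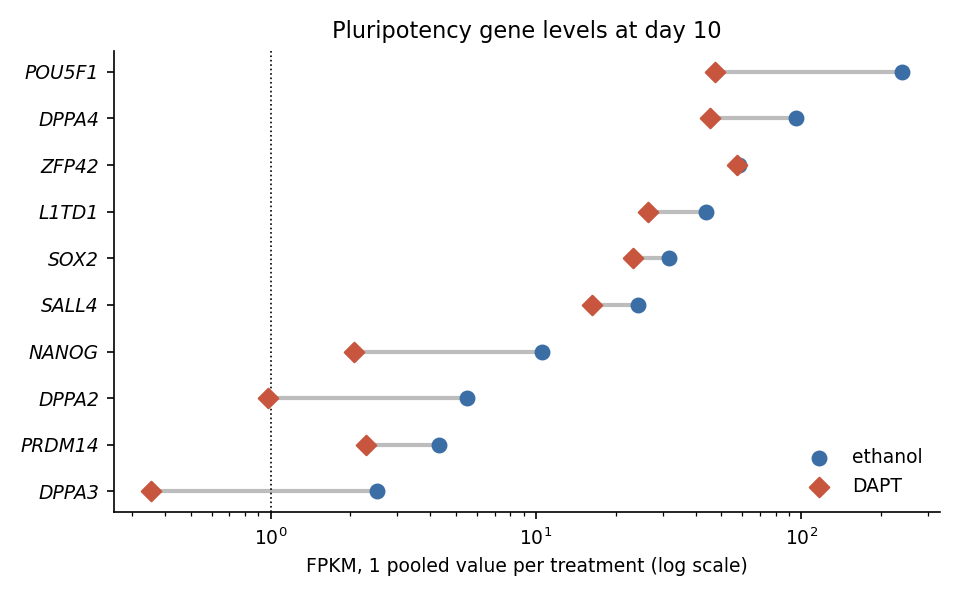
Pooled FPKM of the 10 genes with ethanol (circles) and with DAPT (diamonds) on a log axis, 1 value per treatment over 3 libraries, ordered by the ethanol level; the dotted line marks 1 FPKM. The widest gaps belong to DPPA3, DPPA2, NANOG and POU5F1, while the ZFP42 symbols lie on each other at 58.0 and 57.0 FPKM.

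POU5F1 encodes OCT4, the POU-homeodomain factor without which pluripotency is lost. Its pooled level was 240.1 FPKM with ethanol and 47.3 FPKM with DAPT, a log2 difference of −2.34, so that 19.7% of the ethanol level remained. It was the most abundant of the 10 genes with ethanol and came second to ZFP42 with DAPT. Among the genes at 1 FPKM or more in either treatment it stood at percentile 98.0 with ethanol and 89.4 with DAPT. Only 0.912% of all genes with a fold had a lower log2 difference.

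NANOG, a homeodomain factor that stabilises self-renewal, was much less abundant. It stood at 10.5 FPKM with ethanol and 2.06 FPKM with DAPT, a log2 difference of −2.36. Its percentile went from 58.3 to 16.1. The ratio of POU5F1 to NANOG was therefore nearly the same in both treatments, at 22.8 with ethanol and 22.9 with DAPT.

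SOX2, the high-mobility-group factor that pairs with OCT4 on DNA, had a smaller difference. Its level was 31.6 FPKM with ethanol and 23.1 FPKM with DAPT, a log2 difference of −0.45, which did not pass the threshold. The ratio of POU5F1 to SOX2 was 7.59 with ethanol and 2.04 with DAPT. The genes of these DNA-binding partners thus differed between the treatments by unequal amounts.

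OCT4 and SOX2 bind next to each other on a composite element made of a SOX core and an octamer. The 300-base promoter windows of RefSeq (GRCh38.p14, 250 bases before to 50 after the gene start) were searched on both strands for the octamer core ATGCAAA and for the SOX cores CATTGT and CTTTGT. Windows were found for 7 of the 10 genes. NANOG, SOX2 and DPPA3 held an octamer core, as did 4.51% of all 27305 windows, and 5 of the 7 held a SOX core, as did 24.6% of all. Only the NANOG window among the 7 held both in the composite order, a SOX core, 1 base and the octamer core, which was found in 4 windows in all (0.0146%). The stretches around the octamer cores are shown because that of NANOG holds the element through which the core factors are known to act on this gene. They lie at chr12:7789271-7789300, chr3:181711814-181711843 and chr12:7711261-7711290, all on the plus strand, with octamer and SOX cores in capitals.
NANOG: ctgcagctactTTTGCATtACAATGgcctt
SOX2: cgccccctttcATGCAAAacccggcagcga
DPPA3: agattattttaATGCAAAgcagatgaagaa
In the NANOG stretch the octamer core reads on the opposite strand and begins 120 bases before the gene start, with the SOX core after 1 base. The cores of SOX2 and DPPA3 begin 100 and 161 bases before the start and stand without a SOX core in the stretch shown. A match of letters is a description and not a measured binding site.

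DPPA2 and DPPA4 encode proteins with a SAP domain that, in mouse, bind each other and keep developmental promoters open to activation. DPPA2 stood at 5.49 FPKM with ethanol and 0.977 FPKM with DAPT, a log2 difference of −2.49. DPPA4 was far more abundant, at 95.7 and 45.3 FPKM, and its log2 difference was −1.08. Both fell, but DPPA4 exceeded DPPA2 by 17.4 times with ethanol and by 46.4 times with DAPT. DPPA4 was the second most abundant of the 10 genes with ethanol and the third with DAPT.

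DPPA3 encodes Stella, which in mouse protects methylated DNA of the early embryo and is known from germ cells. It had the largest log2 difference of the 10 genes, −2.82, from 2.51 FPKM with ethanol to 0.355 FPKM with DAPT. It was the lowest of the 10 in both treatments. DPPA3 and DPPA2 passed the 1 FPKM minimum through their ethanol values alone, so a lower value with DAPT was favoured by the filter for these 2 genes. DPPA5, an RNA-binding protein gene and not among the 10, was at 0.301 and 0.0275 FPKM and was not counted.

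**Figure D2:**
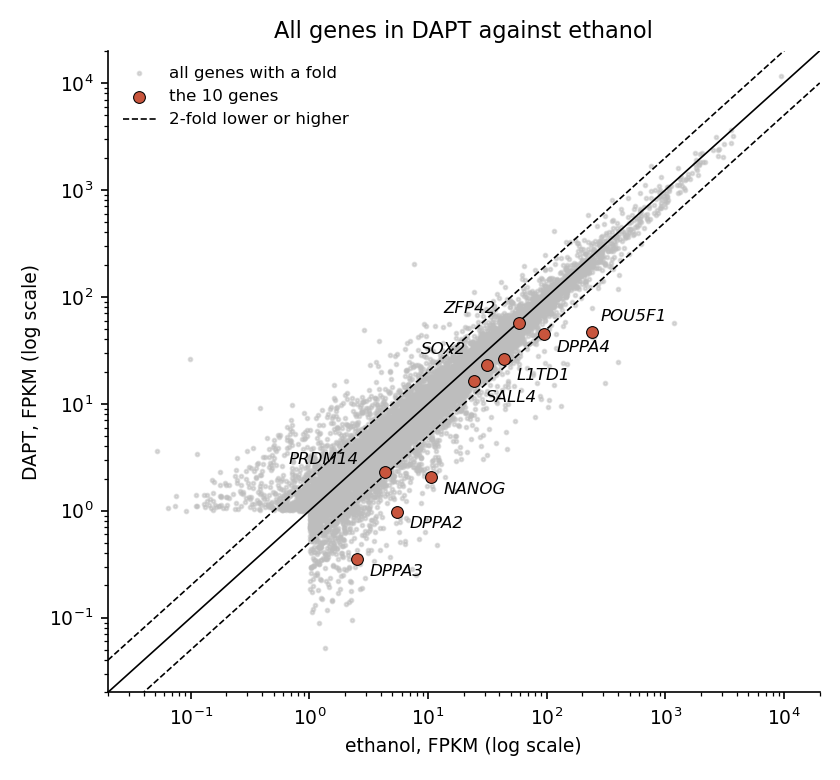
Pooled FPKM of each gene with DAPT against ethanol, both axes on a log scale, for the 13370 genes with a fold (grey) and the 10 genes (red); the solid line marks equal values and the dashed lines 2-fold differences. POU5F1, NANOG, DPPA2 and DPPA3 lie well below the lower dashed line, DPPA4 just below it, and the other 5 between the lines.

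The remaining 4 genes did not pass the threshold. ZFP42 encodes REX1, a zinc finger protein that arose from YY1 and is used as a marker of undifferentiated cells. Its level was 58.0 FPKM with ethanol and 57.0 FPKM with DAPT, a log2 difference of −0.03, and its percentile was 91.0 and 91.1. It was thus the most abundant of the 10 genes with DAPT, where the ratio of ZFP42 to POU5F1 was 1.21, against 0.242 with ethanol. YY1 itself, a ubiquitous regulator, stood at 23.0 FPKM in both treatments, and YY1AP1, which encodes a YY1-associated protein, stood at 17.0 and 16.2 FPKM.

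L1TD1, which derives from the first open reading frame of a LINE-1 element and encodes an RNA-binding protein of hESCs, stood at 43.7 FPKM with ethanol and 26.4 FPKM with DAPT, a log2 difference of −0.73. SALL4, a zinc finger factor that recruits the nucleosome remodelling and deacetylase (NuRD) complex, stood at 24.2 and 16.2 FPKM, a log2 difference of −0.58. PRDM14, a PR-domain factor that acts on OCT4 enhancers in hESCs and is needed for germ cells in mouse, stood at 4.31 and 2.30 FPKM, a log2 difference of −0.91. PRDM14 was below NANOG with ethanol and slightly above it with DAPT, with a ratio of PRDM14 to NANOG of 0.409 and 1.11. Between the treatments the order of L1TD1, SOX2 and SALL4 did not change, at places 4, 5 and 6.

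Among the 7 genes with a window, the promoters of those that fell and of those that did not differed in their CpG content. POU5F1, which fell, and SALL4 and PRDM14, which did not, had no window. CpG-rich promoters are usual for genes active in many tissues, whereas CpG-poor ones are more often tissue-restricted. The 300-base windows of NANOG, DPPA4, DPPA3 and DPPA2 held 5, 5, 6 and 7 CpG dinucleotides, and all 4 genes fell. Those of L1TD1, SOX2 and ZFP42 held 14, 20 and 24, and none of these 3 fell. The median over all windows was 14. This order over 7 genes is a description, and the windows of all genes did not show a lower level for CpG-poor promoters as such. Of the 1054 genes with a fold and up to 9 CpG, 12.2% fell and 10.2% rose, with a median log2 difference of 0.03. Of the 3134 genes with 20 to 29 CpG, 3.29% fell and 2.78% rose, with a median of 0.00.

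The 250 bases before the start are printed for the 2 of the 10 genes that lie on chromosome 12 and for the pair with CpG-rich windows, to show the contrast, with each CpG in capitals. The windows are chr12:7789152-7789401 for NANOG, chr12:7711183-7711432 for DPPA3, chr4:187995521-187995770 for ZFP42 and chr3:181711675-181711924 for SOX2, all in GRCh38.p14 and on the plus strand.
NANOG: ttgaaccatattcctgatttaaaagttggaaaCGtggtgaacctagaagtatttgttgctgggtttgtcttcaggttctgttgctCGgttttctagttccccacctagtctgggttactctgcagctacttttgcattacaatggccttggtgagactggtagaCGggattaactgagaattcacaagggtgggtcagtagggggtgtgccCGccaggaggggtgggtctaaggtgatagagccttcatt
DPPA3: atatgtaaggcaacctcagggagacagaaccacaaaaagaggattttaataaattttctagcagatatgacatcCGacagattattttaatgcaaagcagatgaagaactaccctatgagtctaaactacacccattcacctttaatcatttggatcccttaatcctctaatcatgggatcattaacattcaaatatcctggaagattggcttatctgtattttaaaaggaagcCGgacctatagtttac
ZFP42: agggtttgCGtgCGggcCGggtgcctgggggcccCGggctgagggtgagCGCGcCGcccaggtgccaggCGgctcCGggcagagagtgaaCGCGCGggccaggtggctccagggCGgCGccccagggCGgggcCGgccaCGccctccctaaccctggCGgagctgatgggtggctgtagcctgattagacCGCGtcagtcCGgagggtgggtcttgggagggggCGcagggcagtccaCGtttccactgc
SOX2: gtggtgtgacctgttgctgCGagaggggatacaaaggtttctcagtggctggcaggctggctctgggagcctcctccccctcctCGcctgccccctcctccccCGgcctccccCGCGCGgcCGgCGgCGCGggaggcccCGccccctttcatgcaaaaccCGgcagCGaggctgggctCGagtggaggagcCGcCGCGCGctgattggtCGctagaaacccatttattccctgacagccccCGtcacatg
These stretches hold 4, 2, 23 and 20 CpG dinucleotides, in the order printed.

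**Figure D3:**
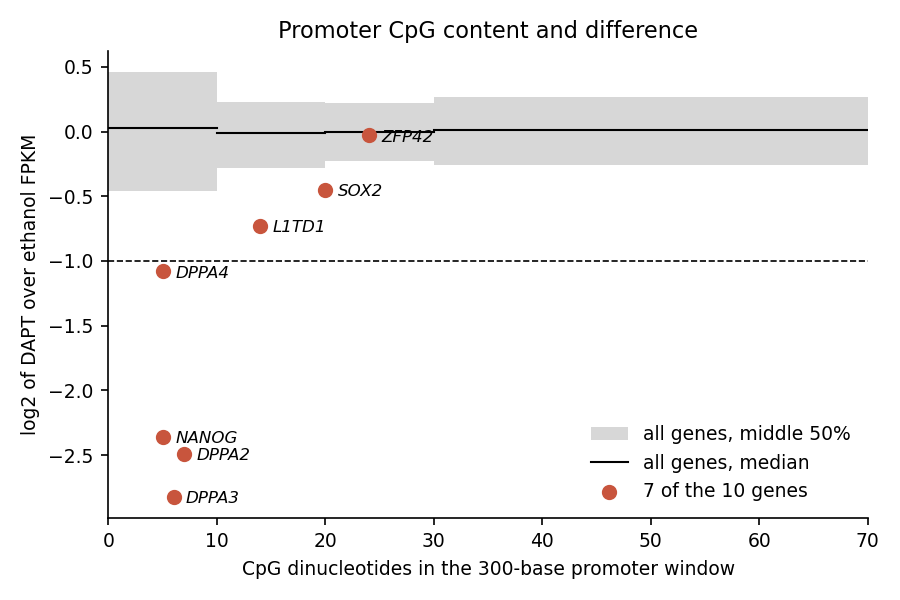
Log2 of DAPT over ethanol FPKM against the number of CpG dinucleotides in the 300-base promoter window, for 7 of the 10 genes (red); the grey bands and black lines give the middle 50% and the median of all genes in 4 classes of CpG number, and the dashed line marks 2-fold lower. The 4 genes with 5 to 7 CpG lie below the dashed line and the 3 with 14 to 24 above it, while the median of all genes stays near 0 in every class.

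Part of the sequence of some of these genes also occurs elsewhere in the genome, so that reads can be shared. Of the 50-base stretches of the POU5F1 transcript, 63.9% also occurred in a transcript of another gene, mainly POU5F1B (35.8%), POU5F1P3 (31.2%) and POU5F1P4 (23.0%), which are copies made by reverse transcription. The rows of these copies stood at 60.4, 82.4 and 44.3 FPKM with ethanol and at 13.6, 15.6 and 9.64 FPKM with DAPT. Their log2 differences of −2.15, −2.40 and −2.20 were close to that of POU5F1. Reads from the shared parts of POU5F1 and its copies cannot be told apart here. The sum of the 4 rows, 427 and 86.1 FPKM, gave a log2 difference of −2.31. The POU5F1 row was placed on the alternative haplotype chr6_ssto_hap7, from 2467051 to 2473404 in hg19, and not on the main sequence of chromosome 6.

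The shared part was 45.0% for DPPA3 and 28.4% for NANOG, for which NANOGP8 alone held 25.3%, and at most 5.9% for each of the other 7 genes. Levels of DPPA3 and NANOG are uncertain for this reason, by an amount that the shared part does not give. The SOX2 row carried the locus of the long noncoding RNA SOX2-OT, chr3:180774468-181460013 in hg19, inside which the single-exon gene SOX2 lies. The SOX2-OT row itself stood at 0.00834 FPKM with ethanol and 0.0432 FPKM with DAPT.

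Some of the 10 genes are neighbours. DPPA3 (chr12:7864089-7870152 in hg19) and NANOG (chr12:7941995-7948655) lie in a cluster of chromosome 12 that also holds GDF3, a ligand of the transforming growth factor-β (TGF-β) family expressed in hESCs. GDF3 stood at 14.0 FPKM with ethanol and 2.05 FPKM with DAPT, a log2 difference of −2.76. The rows between these genes, CLEC4C and NANOGNB, were at or below 0.0255 FPKM, or listed at 0, in both treatments. On the other side of NANOG, the glucose transporter genes SLC2A14 and SLC2A3 were at 77.3 and 510 FPKM with ethanol and at 68.5 and 433 FPKM with DAPT, and neither passed the threshold. The 3 genes that fell thus stood between rows with little or no signal and abundant rows with small differences.

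DPPA2 (chr3:109012635-109035364) and DPPA4 (chr3:109044988-109056419) lie 9624 bases apart on chromosome 3, and both fell. On their outer sides, LINC00488 was at 0.0531 and 0.0430 FPKM and FLJ25363 was listed at 0 in both treatments. ZFP42 (chr4:188916925-188926199) was followed by TRIML2, at 22.8 FPKM with ethanol and 26.8 FPKM with DAPT, while LOC339975 before it was at 0.670 and 0.721 FPKM.

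**Figure D4:**
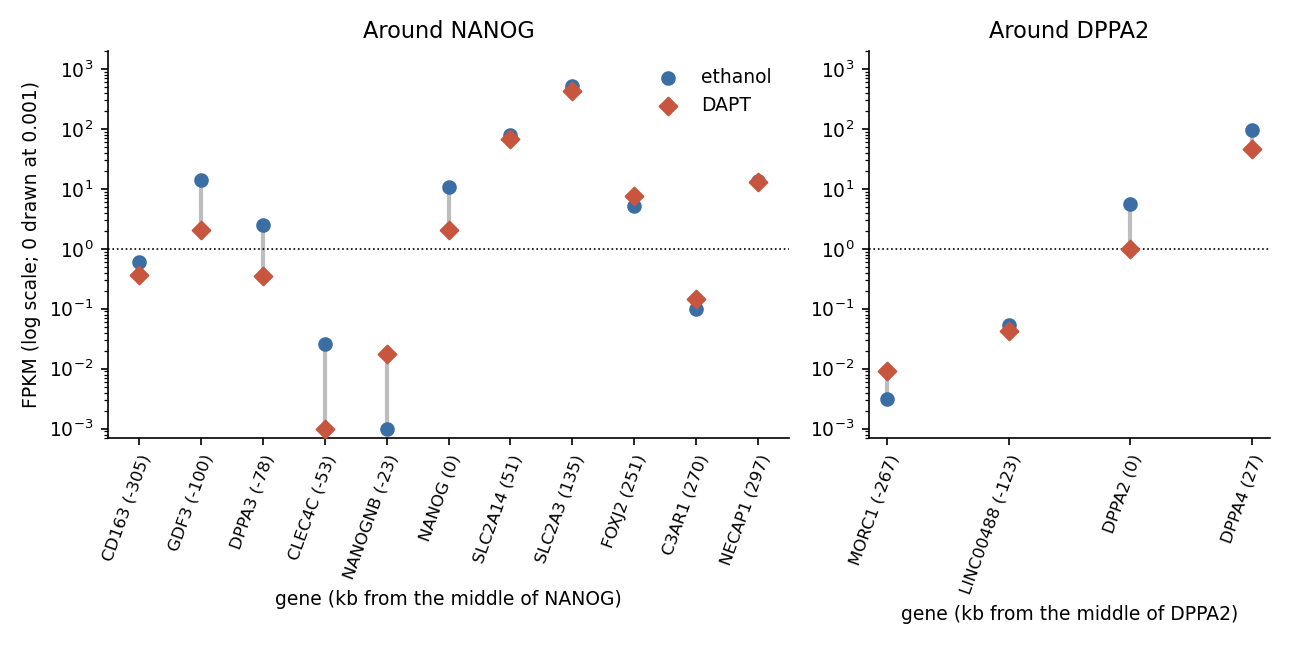
Pooled FPKM (log axis, 0 drawn at 0.001) with ethanol (circles) and DAPT (diamonds) of the rows within 300 kb of NANOG (left) and of DPPA2 (right) that had signal in either treatment, in order along the chromosome, with the distance of each from the central gene in kb; the dotted line marks 1 FPKM. GDF3, DPPA3 and NANOG fell with low rows between them, and SLC2A14 and SLC2A3 at 51 and 135 kb differed little.

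Most neighbours of the other genes did not pass the threshold. Beside L1TD1 (chr1:62660474-62678001), KANK4, a cytoskeletal regulator gene, rose from 1.73 to 7.15 FPKM, a log2 difference of 2.05, and INADL, a cell polarity gene, stood at 4.37 and 5.83 FPKM. Beside SALL4 (chr20:50400583-50419048), ATP9A stood at 5.16 and 8.45 FPKM and ZFP64 at 7.48 and 7.19 FPKM. Beside PRDM14 (chr8:70963886-70983562), NCOA2 stood at 3.41 and 4.57 FPKM and SLCO5A1 at 0.539 and 0.202 FPKM. TCF19, next to POU5F1, stood at 4.18 and 5.59 FPKM, and PSORS1C3 on its other side was at 0.0161 FPKM or listed at 0. DNAJC19, before SOX2, stood at 15.5 and 12.7 FPKM, and FLJ46066 after it was at 0.0125 FPKM or listed at 0. Of these 10 neighbours, SLCO5A1, PSORS1C3 and FLJ46066 had no fold and could not be counted. KANK4 alone of the others passed the threshold. Over all genes with a fold, 5.45% fell and 4.77% rose.

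Most genes with a fold in the SOX, POU, SALL and PRDM families did not pass the threshold. Among all genes with a fold, 5.45% fell and 4.77% rose. The family counts include SOX2, POU5F1, SALL4 and PRDM14 themselves. In the SOX family, 14 of 19 genes in the table had a fold, 2 fell and 1 rose. SOX17, an endoderm and germ cell factor, fell from 4.41 to 0.475 FPKM, and SOX3, which like SOX2 belongs to the SOXB1 group, fell from 3.25 to 1.60 FPKM. SOX10, a neural crest factor, rose from 0.649 to 3.49 FPKM. The most abundant member was SOX4, at 43.5 and 39.8 FPKM. SOX2 was second with ethanol and DAPT, and the log2 differences of the 10 other SOX genes, SOX4 included, ranged from −0.56 for SOX13 to 0.89 for SOX15.

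In the POU family, 5 of 16 genes had a fold, and those that fell were POU5F1 and its copy POU5F1B. POU2F1 stood at 2.97 and 2.99 FPKM, POU2F2 at 1.73 and 2.55 FPKM, and POU3F1 at 1.12 and 0.773 FPKM. All 4 SALL genes had a fold and 0 passed the threshold, with a median log2 difference of −0.66. SALL2 stood at 49.6 FPKM with ethanol and 27.9 FPKM with DAPT, above SALL4 in both. SALL1 stood at 15.2 and 9.15 FPKM and SALL3 at 1.22 and 1.04 FPKM. Of 15 PRDM genes, 7 had a fold and 0 passed the threshold. PRDM14 had the lowest log2 difference of these, and PRDM4 and PRDM2 were the most abundant, at 8.61 and 7.41 FPKM with ethanol and 11.6 and 10.6 FPKM with DAPT. PRDM1, which acts with PRDM14 in the mouse germ line, stood at 1.57 and 1.23 FPKM, PRDM10 at 2.67 and 2.72 FPKM and PRDM15 at 1.80 and 1.48 FPKM.

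Other genes of undifferentiated hESCs were also lower with DAPT in many cases. Of 32 such genes, 31 had a fold, 16 fell and 0 rose, with a median log2 difference of −1.03. GAL, the galanin neuropeptide gene, fell from 79.2 to 7.59 FPKM, a log2 difference of −3.38. VENTX, a homeobox gene, fell from 3.21 to 0.676 FPKM. The most abundant genes of this list, which encode surface proteins, stood closer to their ethanol level. CD24 was at 446 and 288 FPKM, PODXL at 229 and 167 FPKM, and CD9 at 121 and 145 FPKM. Other genes of surface proteins fell, among them TDGF1 from 105 to 22.6 FPKM and ALPL from 44.5 to 14.7 FPKM.

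Genes of the primed state, which is that of conventional hESCs, and of the formative state were listed together. They gave 6 falls and 0 rises among 16, with a median log2 difference of −0.73. THY1 fell from 142 to 57.8 FPKM, and ETV4, a target of fibroblast growth factor signalling, from 38.5 to 14.6 FPKM. SFRP2, a WNT antagonist, stood at 75.8 and 109 FPKM, and CDH2 at 66.3 and 55.5 FPKM. Genes of the naive state were mostly low, with 8 of 18 at 1 FPKM or more. Of these 8, 2 fell, LIFR from 11.7 to 3.62 FPKM and SUSD2 from 1.46 to 0.529 FPKM, and the median log2 difference was 0.01. STAT3, IL6ST and TBX3 were the most abundant, with log2 differences of 0.06, −0.27 and −0.03, and KLF4 was at 0.818 and 1.45 FPKM.

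Germ cell genes and genes of early embryonic genome activation were given because DPPA3 and PRDM14 are known from germ cells and the DPPA2 and DPPA4 pair from the activation of the embryonic genome in mouse. Of 15 germ cell genes, 8 had a fold, and SOX17 alone fell, with a median log2 difference of −0.04. PDPN stood at 38.1 and 34.0 FPKM, SOX15 at 7.18 and 13.3 FPKM, and TFAP2C at 6.08 and 6.96 FPKM, while the germ cell genes DAZL and DDX4 were at or below 0.167 FPKM. Of 15 genome activation genes, 0 reached 1 FPKM, and their summed level was 1.32 FPKM with ethanol and 0.755 FPKM with DAPT.

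Of the genes of the co-repressors that work with SALL4 and PRDM14, none with a fold passed the threshold. The shares over all genes with a fold were 5.45% fallen and 4.77% risen. All 13 NuRD genes had a fold, 0 fell and 0 rose, and their median log2 difference was −0.04. CHD4, the NuRD ATPase, stood at 61.3 and 68.0 FPKM, RBBP7 at 61.5 and 62.9 FPKM and MTA3 at 58.6 and 46.8 FPKM, while CHD3 at 0.52 and MTA1 at −0.43 had the largest log2 differences. Of 11 Polycomb and CBFA2T genes, 9 had a fold, 0 fell and 0 rose, with a median of 0.14. CBFA2T3, at 0.172 FPKM with ethanol and 0.264 FPKM with DAPT, and RUNX1T1, at 0.0474 and 0.613 FPKM, were too low to be counted. CBFA2T2, the partner of PRDM14, stood at 4.46 and 5.49 FPKM. EZH2, the histone methyltransferase of Polycomb, stood at 8.86 and 13.6 FPKM, JARID2 at 5.19 and 8.67 FPKM, MTF2 at 19.0 and 16.5 FPKM and EED at 15.0 and 13.9 FPKM.

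**Figure D5:**
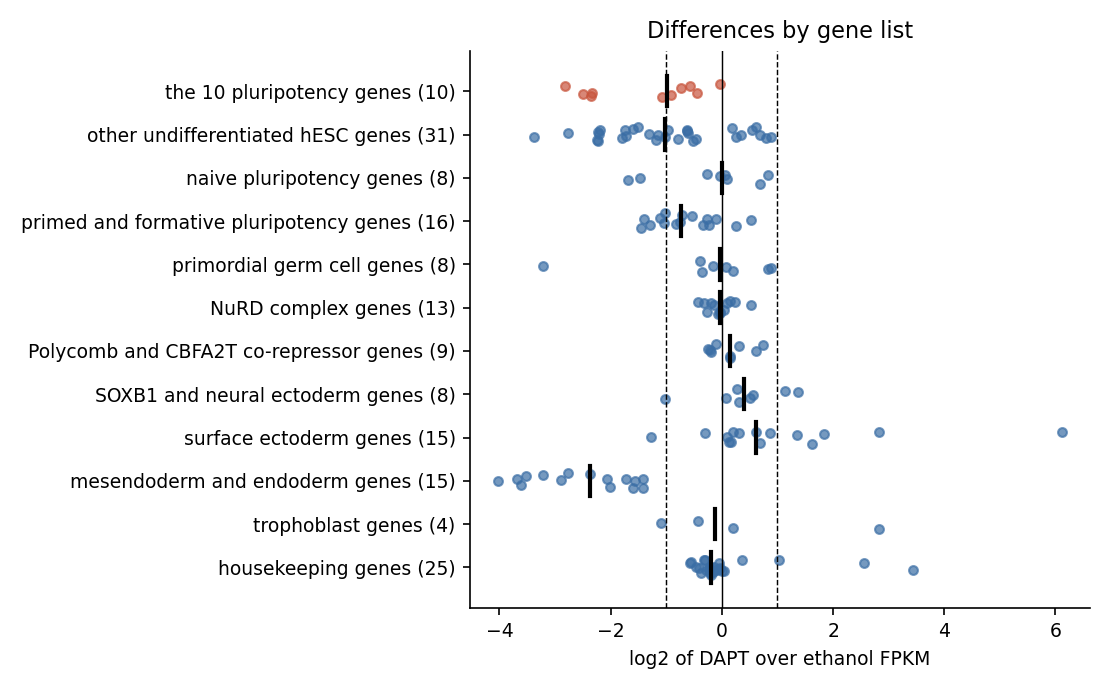
Log2 of DAPT over ethanol FPKM of each gene with a fold, by list, with the number of such genes in parentheses; each point is a gene, black bars are list medians and dashed lines mark 2-fold differences. The 10 genes have a median of −0.99, close to the −1.03 of the other undifferentiated hESC genes, while the mesendoderm and endoderm list lies lower, at −2.37, and NuRD genes lie near 0.

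Markers of other cell types differed in direction from list to list. Of 16 mesendoderm and endoderm genes, 15 had a fold and all 15 fell, with a median log2 difference of −2.37, and their summed level was 579 FPKM with ethanol and 57.7 FPKM with DAPT. APOA1, an apolipoprotein of liver and yolk sac, fell from 403 to 24.7 FPKM, TTR from 46.5 to 3.79 FPKM, CXCR4 from 38.5 to 11.7 FPKM and FOXA2, an endoderm factor, from 4.79 to 0.370 FPKM. FOXA1 was under 1 FPKM in both treatments. Of these genes none was listed at 0. Several of the 15 that fell, FOXA2 and SOX17 among them, passed the 1 FPKM minimum through their ethanol values alone. For those, a lower value with DAPT was favoured by the filter. The part of the mesendoderm and endoderm genes in the lower levels of the 10 genes was not tested.

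Of 16 surface ectoderm genes, 15 had a fold, 5 rose and 1 fell, with a median log2 difference of 0.61 and a summed level of 2126 FPKM with ethanol and 2528 FPKM with DAPT. TFAP2B rose from 0.0519 to 3.60 FPKM, TP63 from 0.546 to 3.88 FPKM and GRHL2 from 3.90 to 13.9 FPKM, while the keratin genes KRT8, KRT18 and KRT19 had log2 differences of 0.13, 0.30 and 0.17. TFAP2B and TP63 passed the 1 FPKM minimum through their DAPT values alone, so a rise was favoured by the filter for them. Of 15 SOXB1 and neural ectoderm genes, which were included because SOX2 is also a neural gene, 8 had a fold, 2 rose and 1 fell. OTX1 rose from 1.27 to 3.28 FPKM and PAX6 from 1.17 to 2.57 FPKM, and SOX3 fell. NES stood at 56.4 and 69.5 FPKM, FABP7 at 7.59 and 11.2 FPKM and SIX3 at 3.23 and 4.56 FPKM, and SOX1 was at 0.0935 and 0.0932 FPKM. What share of the SOX2 signal came from neural cells was not tested.

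Of 11 trophoblast genes in the table, 4 had a fold. VGLL1 rose from 1.60 to 11.3 FPKM, PGF fell from 6.12 to 2.85 FPKM, and HLA-G had a log2 difference of −0.43, while the summed level of the list was 16.8 FPKM with ethanol and 24.5 FPKM with DAPT. The hormone gene CGA was under 1 FPKM in both treatments. Of 25 housekeeping genes, 0 fell and 3 rose, REEP5 from 0.439 to 4.77 FPKM, RAB7A from 4.82 to 28.3 FPKM and VPS29 from 21.3 to 43.3 FPKM. The median of the list was −0.19, with GAPDH, ACTB and RPLP0 at −0.21, −0.22 and −0.22.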

How the data were processed

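H1 hESCs under ectoderm specification with DAPT or ethanol were sequenced as 3 stranded poly-A libraries per treatment. The study's text calls them triplicates and does not name separate cultures. Reads were mapped by the authors to hg19 using TopHat2 2.0.6, and the authors computed the deposited FPKM values with Cufflinks, pooled to 1 value per treatment. The sources used here give neither the annotation nor the handling of reads with several positions. The columns of the authors' own comparison, with fold changes, test statistics, p-values and calls, were not used. The sheet of changed genes holds 1417 rows, all with the values of the all-genes sheet.

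Log2 ratios were computed in Python 3.11.15 with pandas 2.3.3 from genes at 1 FPKM or more in either treatment (13480), less 110 listed at 0 in 1 treatment. No test was possible with 1 value per treatment. The code was tested on simulated data. The 10 genes and all 19 lists were chosen with earlier results of these data known. From each list, up to 3 genes of highest mean level and up to 3 of largest difference are named, with every family member with a fold and the nearest row on either side of each of the 10 genes. The other SOX genes are given by their range. A few genes chosen by this rule are not reported here. DPPA5, FOXA1, SOX1, CGA, DAZL, DDX4, CBFA2T2, CBFA2T3, RUNX1T1, TDGF1, ALPL, SLC2A3 and SOX2-OT are named beyond that rule, chosen after their values were seen. Symbols belonging to more than 1 list are counted in each. Shared 50-base stretches came from GENCODE transcripts of GRCh37, and promoter windows from RefSeq for GRCh38.p14, matched by symbol. Starts of loci were moved by 1 base to count from 1. The alternatives were 11, of which 1, the correction for transcript length and GC content, was chosen after seeing the data.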

Additional observations from a re-analysis of the deposited data

How the results depend on the processing

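With 1 pooled value per treatment, an alternative was counted as moving a log2 value when it changed it by more than 0.1. The number of genes that fell stayed between 4 and 7 under all 11 alternatives, with 0 rising, against 5 as reported: it was 4 of 8 with a minimum of 5 FPKM (3.50% of all genes), 4 of 10 with a fold over 3 (2.42%), 4 of 8 with single rows on standard chromosomes (5.76%), which leave out POU5F1 and SOX2, 6 of 10 with housekeeping scaling (6.58%), where PRDM14 passed at −1.01, and 7 of 10 with a fold over 1.5 (11.4%). The median of −0.99 became −0.88 with 1 FPKM added and −1.10 with housekeeping scaling, which shifts every gene by −0.10. This shift does not follow the median of the housekeeping list, −0.19, which would move every gene upward instead. It reflects the high log2 differences of REEP5 (3.44), RAB7A (2.55) and VPS29 (1.03). The pass of PRDM14 and the median of −1.10 therefore depend on these genes, and scaling by the list median was not tried. POU5F1, NANOG, DPPA2, DPPA3 and DPPA4 passed the 2-fold threshold under every alternative at that threshold that kept them. DPPA4 passed only narrowly, at −1.01 when scaled by the column sum. Scaling by the housekeeping median of −0.19 would leave DPPA4 under the threshold. With 1 FPKM added, DPPA3 stood at −1.37, DPPA2 at −1.72 and NANOG at −1.92. ZFP42 alone changed sign, to 0.04 when scaled by the column sum. Correction for transcript length and GC content, chosen after seeing the data, gave −2.10 for POU5F1 and −2.51 for NANOG.

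No paired analysis was possible because the table holds 1 pooled value per treatment, and leaving out each library in turn was not possible for the same reason. Depth is unknown, so the precision of the low levels of DPPA3, DPPA2, NANOG and PRDM14 cannot be stated.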
